A study of Mus musculus with 12 samples.

Results

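The data described here are the RNA levels of 8 mouse genes that encode sensors of foreign or misplaced nucleic acid and their partners, namely *Ddx58*, *Ifih1*, *Dhx58*, *Zbp1*, *Eif2ak2*, *Tlr3*, *Mavs* and *Adar*. They were taken by symbol from the 35521 genes to which the deposited transcript tables could be assigned. The list was drawn up with earlier results of these data known, so the choice was not blind to them. All 8 were among the 12555 genes expressed highly enough to be tested. RNA-Seq was performed on 4T1 cells, a mouse mammary carcinoma line that grows and metastasizes in BALB/c mice. Tu-Gr1+–primed 4T1 cells (n = 4 libraries) had been kept for 48 h in a Transwell, with pores of 0.4 µm, with Gr1+ cells taken from 4T1 tumors on day 21 after injection, and Spl-Gr1+–primed 4T1 cells (n = 4) had been kept in the same way with Gr1+ cells from the spleens of such mice. Parental 4T1 cells (n = 4) were not cocultured, and all 3 groups are the same line without any engineered allele. Day 21 is not the only day given, since the paper's coculture methods name a slightly later one. The Gr1+ cells were purified on a magnetic column, and the 4T1 cells were lysed in the well. The sources used here do not say whether the 4 libraries of a group came from separate cultures or from different donor mice, so that p-values measure only the spread between these libraries, which may be technical.

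Cells read RNA in their cytosol through the RIG-I-like receptors. RIG-I (gene *Ddx58*) binds short double-stranded RNA with a triphosphate end, MDA5 (gene *Ifih1*) coats long double-stranded RNA, and LGP2 (gene *Dhx58*) lacks the signaling domains and modulates the others. RIG-I and MDA5 signal through MAVS, a mitochondrial adaptor, toward the type I interferon genes, and interferon in turn raises the RNA of most of the sensors through transcription factor complexes that bind interferon-stimulated response elements. ZBP1 recognizes left-handed Z-form nucleic acid and recruits the kinases of necroptosis, PKR (gene *Eif2ak2*) halts translation after binding double-stranded RNA, TLR3 reads the same ligand in endosomes, and ADAR1 (gene *Adar*) edits adenosines in double-stranded RNA and so keeps the cell's own RNA from being read as foreign.

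Of the 8 genes, 6 had a start-site window in the RefSeq promoter table (GRCm38.p6), which spans 250 bases before to 50 bases after an annotated start, and *Adar* had several, which gave 8 windows. The windows were searched on both strands for 2 motifs, the core of the interferon-stimulated response element (GAAA, any 2 bases, GAAA) and the gamma-activated site (TTC, any 3 bases, GAA). The response element core stood in the windows of *Ifih1*, *Ddx58* and *Eif2ak2*, against 3.44% of all 32851 windows, and the gamma-activated site stood in 1 window of *Adar* and in that of *Eif2ak2*, against 8.30% of all windows. The *Mavs* and *Tlr3* windows and the other *Adar* windows held neither. Only exact matches were counted. The *Adar* window with the site also reads gaaagtgaac, which differs from the response element core only in its last letter. The *Tlr3* window reads tttcactttg, which on the opposite strand also differs from the core in a single letter. The share of all windows with such near matches was not counted. The stretches below are shown because they carry these matches, in capitals, in the sense of the gene, with 30 bases each. A match describes the letters only, and whether any factor binds there was not measured.
*Ifih1* at chr2:62646206-62646235, minus strand: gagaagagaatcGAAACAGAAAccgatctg
*Ddx58* at chr4:40239804-40239833, minus strand, where the match reads on the opposite strand: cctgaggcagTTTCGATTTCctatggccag
*Eif2ak2* at chr17:78882535-78882564, minus strand: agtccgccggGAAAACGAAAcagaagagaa
*Eif2ak2*, gamma-activated site, at chr17:78882731-78882760, minus strand: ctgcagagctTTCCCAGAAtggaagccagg
*Adar*, gamma-activated site, at chr3:89730730-89730759, plus strand: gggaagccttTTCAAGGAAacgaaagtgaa
The *Ifih1* match began 32 bases after the annotated start, the *Ddx58* match 2 bases after it and the response element core of *Eif2ak2* 18 bases after it. The *Adar* match began 22 bases after the start that RefSeq gives, chr3:89730718. It lay 8 bases before the start, at 89730748, of the downstream *Adar* transcripts in the annotation used for the counts, which are described further on.

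The 12 libraries held between 24566183 and 31637755 estimated reads, and normalization factors ranged from 0.88 to 1.05. Levels are given below as counts per 1000000 (CPM) after trimmed mean of M values (TMM) normalization. Reads on retained-intron and nonsense-mediated decay transcripts made up 5.37% to 6.13% of each primed library and 3.93% to 4.35% of each parental one. Of 13 mammary epithelial marker genes, 12 were expressed highly enough to be tested and none passed the test between the primed groups. The smallest p was that of *Krt7* (log2 fold change −0.32, SE 0.10, adjusted p = 0.0742). The libraries of *Krt7*, *Krt8* (−0.30, adjusted p = 0.117) and *Krt18* (−0.30, adjusted p = 0.124) did not overlap between these groups. Against parental cells 2 of the 12 were higher and 5 lower in Tu-Gr1+–primed cells, where 31.2% and 28% of all genes were. In Spl-Gr1+–primed cells 2 were higher and 4 lower, where 25.7% and 22.5% of all genes were. The summed level of the 13 genes was 2300 to 2715 CPM in the Tu-Gr1+–primed, 2804 to 2925 CPM in the Spl-Gr1+–primed and 3095 to 4297 CPM in the parental libraries, with *Krt5* at 0 in all. The 4T1 wells could also hold RNA of the Gr1+ cells. Of 22 granulocyte and myeloid marker genes, 10 had a count of 0 in every Tu-Gr1+–primed library, among them the defining granulocyte genes *S100a9*, *Camp*, *Ngp*, *Mpo* and *Elane*, and 11 did so in the Spl-Gr1+–primed and in the parental libraries. The summed level of the 22 genes was higher in the Tu-Gr1+–primed libraries, at 22.4 to 27.3 CPM, than in the Spl-Gr1+–primed libraries, at 17.8 to 21.8 CPM, and in the parental libraries, at 18.4 to 22.2 CPM. Nearly all of this sum came from the 4 markers that were tested, which parental cells also expressed, at 21.8 to 26.9 CPM in Tu-Gr1+–primed, 17.0 to 21.2 CPM in Spl-Gr1+–primed and 17.8 to 21.6 CPM in parental libraries. The other 18, which include the leukocyte gene *Ptprc*, summed to 9 to 17 counts, 10 to 27 counts and 7 to 20 counts per library in the 3 groups, which overlapped. Among the 4 of these markers that were tested, *Ltf* (lactoferrin; log2 fold change 1.16, SE 0.17, adjusted p = 0.00082) and *S100a8* (0.93, SE 0.24, adjusted p = 0.027) were higher in Tu-Gr1+–primed than in Spl-Gr1+–primed cells, and the part of these markers in the results below was not tested.

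In all, 7 of the 8 genes were higher in Tu-Gr1+–primed than in Spl-Gr1+–primed 4T1 cells, by 1.64-fold for *Tlr3* to 19.7-fold for *Zbp1*, and 1, *Mavs*, was slightly lower. Over all 12555 genes, 4.66% were called higher and 2.97% lower in this comparison at an adjusted p below 0.05. The median log2 fold change of the 8 genes was 1.58, against −0.01 over all genes tested. For the same 7 genes, every Tu-Gr1+–primed library lay above every Spl-Gr1+–primed one, a pattern that 8.51% of all genes showed, and the opposite order, shown by another 8.51%, was found for none. Ranked by log2 fold change among the 12555 genes, *Zbp1* stood at place 9 and *Dhx58* at place 29. *Zbp1* and *Dhx58* also belong to the signature that the study drew from these libraries, so their direction in this comparison is not independent evidence. Because bulk RNA was sequenced, a change in the level of a gene per cell and a change in the share of cells that express it cannot be told apart.

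**Figure D1:**
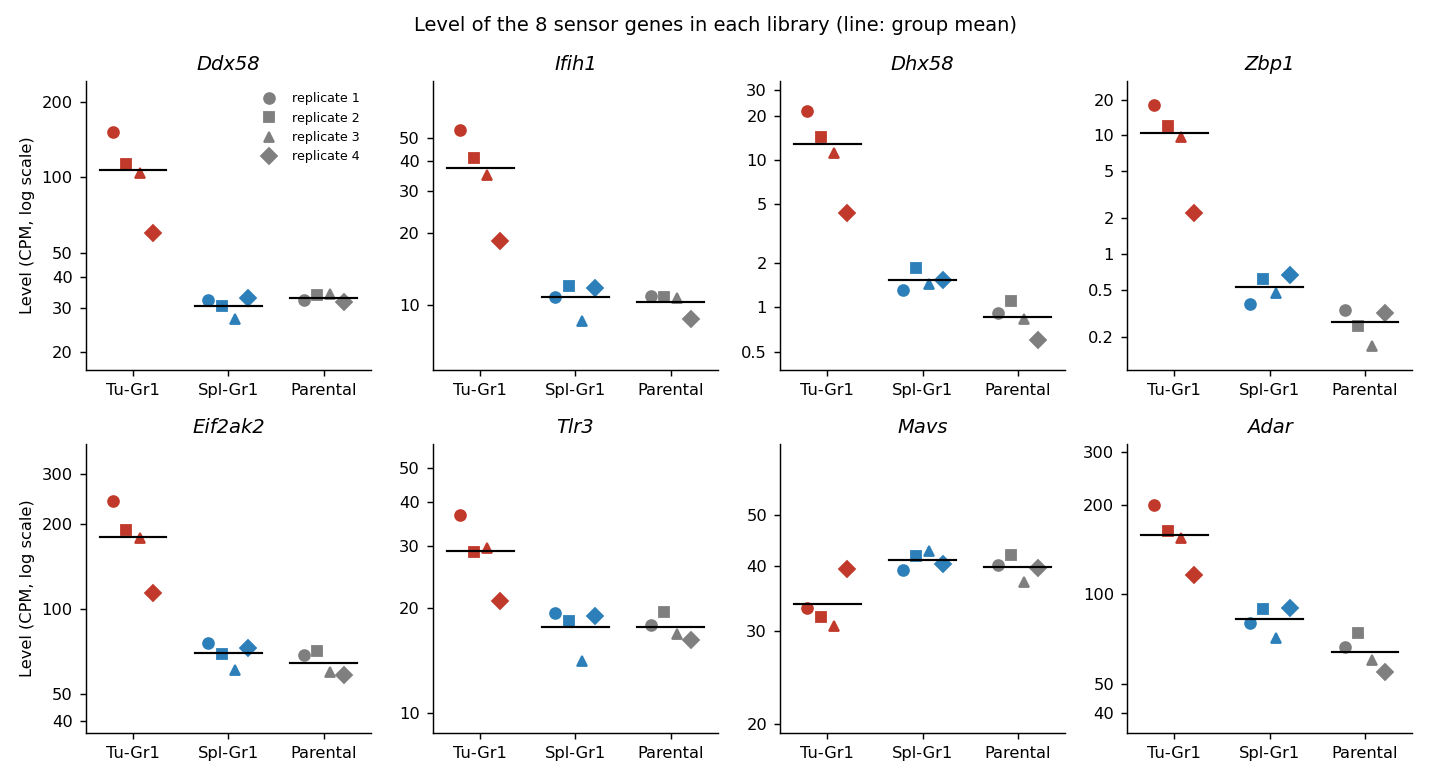
Level of each of the 8 genes in the 12 libraries, in CPM on a log scale that differs between panels, with 1 symbol per replicate and a line at the group mean. In 7 panels all 4 Tu-Gr1+–primed libraries sit above the other 8, and in the *Mavs* panel replicate 4 of that group, at 39.4 CPM, sits among the other groups.

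Among the RIG-I-like receptors, *Ddx58* (chr4:40203773-40239828, ENSMUSG00000040296) was measured at 151, 113, 104 and 60.2 CPM in Tu-Gr1+–primed replicates 1 to 4. It was measured at 32.3, 30.5, 27.2 and 32.9 CPM in the Spl-Gr1+–primed replicates and at 32.4, 33.8, 34.3 and 31.8 CPM in the parental ones. The Tu-Gr1+–primed libraries did not overlap the others, whereas the ranges of the Spl-Gr1+–primed and parental libraries overlapped in part. *Ddx58* was 3.49-fold higher in Tu-Gr1+–primed than in Spl-Gr1+–primed cells (log2 fold change 1.80, SE 0.19, adjusted p = 5.77e-05) and 3.24-fold higher than in parental cells (1.70, SE 0.19, adjusted p = 7.92e-06). Spl-Gr1+–primed cells stood at −0.11 relative to parental cells on the log2 scale (SE 0.19, adjusted p = 0.679).

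*Ifih1* (chr2:62595798-62646255, ENSMUSG00000026896), the receptor for long double-stranded RNA, followed the same order as *Ddx58*. Its 4 Tu-Gr1+–primed libraries held 53.8, 41.3, 35.1 and 18.6 CPM, its Spl-Gr1+–primed libraries 10.8, 12.02, 8.57 and 11.8 CPM and its parental libraries 10.9, 10.8, 10.7 and 8.75 CPM. No Tu-Gr1+–primed library fell into the range of the other groups, and those overlapped each other. The log2 fold change of *Ifih1* was 1.78 against Spl-Gr1+–primed cells (SE 0.24, adjusted p = 0.000289) and 1.85 against parental cells (SE 0.24, adjusted p = 2.14e-05), while the Spl-Gr1+–primed cells differed from parental cells by 0.07 (SE 0.25, adjusted p = 0.841).

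*Dhx58* (chr11:100694884-100704271, ENSMUSG00000017830), the regulator without signaling domains, was scarce outside the Tu-Gr1+–primed group. It reached 21.5, 14.4, 11.2 and 4.41 CPM there, from 127 to 606 counts. In the Spl-Gr1+–primed libraries it was at 1.32, 1.85, 1.45 and 1.53 CPM (40 to 51 counts), and in the parental libraries at 0.910, 1.11, 0.839 and 0.599 CPM (15 to 27 counts). The 3 groups did not overlap. The gene was 8.36-fold higher in Tu-Gr1+–primed than in Spl-Gr1+–primed cells (log2 fold change 3.06, SE 0.37, adjusted p = 0.00015) and 14.8-fold higher than in parental cells (3.89, SE 0.41, adjusted p = 4.21e-06). The difference between Spl-Gr1+–primed and parental cells, 0.82 (SE 0.48), did not pass the threshold (adjusted p = 0.172).

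*Mavs* (chr2:131234063-131248025, ENSMUSG00000037523), the adaptor through which the RIG-I-like receptors signal, was the only one of the 8 genes that was lower in Tu-Gr1+–primed cells. It was at 33.3, 31.9, 30.7 and 39.4 CPM there, at 39.4, 41.8, 42.8 and 40.3 CPM in Spl-Gr1+–primed cells and at 40.1, 42.1, 37.2 and 39.6 CPM in parental cells. Replicates 1 to 3 lay below all other libraries, and replicate 4 lay inside their range. *Mavs* fell by 0.28 on the log2 scale against Spl-Gr1+–primed cells (SE 0.07, adjusted p = 0.0293) and by 0.23 against parental cells (SE 0.07, adjusted p = 0.0131). The first of these calls was lost without Tu-Gr1+–primed replicate 1, 2 or 3 (adjusted p = 0.0876, 0.105 and 0.113) or Spl-Gr1+–primed replicate 2 or 3 (adjusted p = 0.0765 and 0.0772), in a fit without the parental libraries (adjusted p = 0.0639) and with the replicate block (adjusted p = 0.0516), and both calls were lost when only protein-coding transcripts were counted (adjusted p = 0.07 and 0.0566). In transcripts per 1000000 (TPM) the order against parental cells was the opposite, at 17.2 ± 1.87 TPM in Tu-Gr1+–primed and 14.6 ± 2.30 TPM in parental cells (SD, n = 4), on a scale that shifted the median gene by 0.44 in log2 between these groups.

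*Zbp1* (chr2:173206612-173218923, ENSMUSG00000027514), the sensor of Z-form nucleic acid, had the widest range of the 8 genes. It was counted 506, 311, 278 and 64 times in the Tu-Gr1+–primed libraries (18.0, 12.1, 9.72 and 2.22 CPM). It was counted 12, 17, 13 and 19 times in the Spl-Gr1+–primed libraries (0.377, 0.617, 0.472 and 0.661 CPM) and 10, 6, 4 and 8 times in the parental ones (0.337, 0.247, 0.168 and 0.320 CPM). As for *Dhx58*, the 3 groups did not overlap, and Tu-Gr1+–primed replicate 4 stood nearest to the other groups. The log2 fold change was 4.30 against Spl-Gr1+–primed cells (SE 0.51, adjusted p = 0.000132) and 5.25 against parental cells (SE 0.58, adjusted p = 6.3e-06), and that between Spl-Gr1+–primed and parental cells, 0.95 (SE 0.79), did not pass (adjusted p = 0.342).

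*Eif2ak2* (chr17:78852564-78882573, ENSMUSG00000024079), the kinase gene whose start-site window held both motifs, was 2.59-fold higher in Tu-Gr1+–primed than in Spl-Gr1+–primed cells. The Tu-Gr1+–primed libraries held 241, 190, 178 and 114 CPM, the Spl-Gr1+–primed libraries 75.9, 68.9, 60.7 and 72.6 CPM and the parental libraries 68.8, 70.7, 59.7 and 58.1 CPM. The lowest Tu-Gr1+–primed library was above every other library. The log2 fold change was 1.38 against Spl-Gr1+–primed cells (SE 0.17, adjusted p = 0.000145) and 1.49 against parental cells (SE 0.17, adjusted p = 7.28e-06), with 0.11 (SE 0.17, adjusted p = 0.6) between the latter groups.

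*Tlr3* (chr8:45395665-45411080, ENSMUSG00000031639), the endosomal receptor, rose least among the 7 genes. Its Tu-Gr1+–primed libraries held 36.7, 28.9, 29.6 and 20.9 CPM, its Spl-Gr1+–primed libraries 19.3, 18.3, 14.1 and 18.9 CPM and its parental libraries 17.9, 19.5, 16.9 and 16.2 CPM. Replicate 4 of the first group was only just above the highest of the others. The log2 fold change was 0.72 against Spl-Gr1+–primed cells (SE 0.14, adjusted p = 0.00621) and 0.72 against parental cells (SE 0.14, adjusted p = 0.000659). With DESeq2 and an offset for the mean transcript length, the first of these was 0.54 and did not pass (adjusted p = 0.141).

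*Adar* (chr3:89715022-89753446, ENSMUSG00000027951), the RNA editing gene, was at 200, 163, 154 and 116 CPM in Tu-Gr1+–primed cells. It was at 79.9, 88.8, 71.3 and 89.5 CPM in Spl-Gr1+–primed cells and at 66.3, 74.3, 60.2 and 54.7 CPM in parental cells. The first group stood apart, and the other groups overlapped by 1 library each. *Adar* was 1.92-fold higher in Tu-Gr1+–primed than in Spl-Gr1+–primed cells (log2 fold change 0.94, SE 0.14, adjusted p = 0.000685) and 2.48-fold higher than in parental cells (1.31, SE 0.14, adjusted p = 4.78e-06). It was also the only one of the 8 genes called between Spl-Gr1+–primed and parental cells (0.37, SE 0.14, adjusted p = 0.042), a call lost with relative log expression normalization (adjusted p = 0.0517). It was also lost without any single one of Tu-Gr1+–primed replicates 2 and 3, Spl-Gr1+–primed replicates 1, 2 and 4, or parental replicates 1, 3 and 4 (adjusted p from 0.0531 to 0.117).

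**Figure D2:**
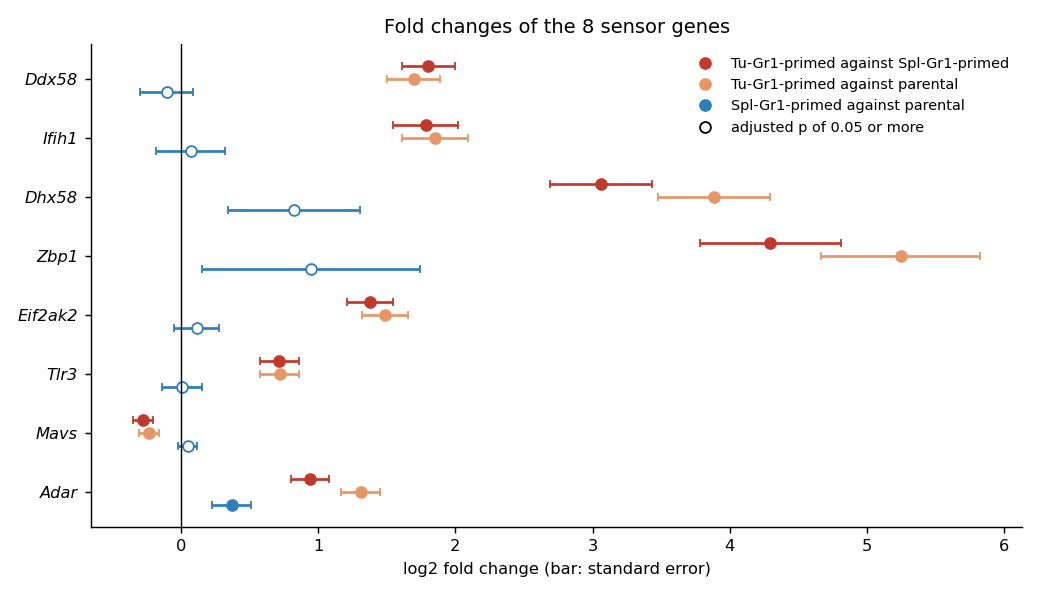
Log2 fold changes of the 8 genes in the 3 comparisons, with bars of 1 standard error and open symbols where the adjusted p was 0.05 or more. All 8 symbols for Tu-Gr1+–primed cells against each other group are filled, from −0.28 for *Mavs* to 5.25 for *Zbp1*, and 7 of the 8 symbols for Spl-Gr1+–primed against parental cells are open.

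Against parental cells, Tu-Gr1+–primed cells again had 7 of the 8 genes higher and 1 lower, with a median log2 fold change of 1.59 against 0.02 over all genes tested. In that comparison 31.2% of all genes were called higher and 28% lower. Spl-Gr1+–primed cells had 1 of the 8 genes higher than parental cells and none lower by edgeR (1 of the 8 at an unadjusted p below 0.05), where 25.7% of all genes were called higher and 22.5% lower. The median of the 8 genes in that comparison was 0.09, against 0.02 over all genes. Both comparisons share the parental libraries. For *Dhx58* and *Zbp1* every Spl-Gr1+–primed library was above every parental one although neither passed the test, at parental counts of 15 to 27 and 4 to 10. The share of all genes with this order was not counted for this comparison, so the order cannot be set against a background. With only the 8 libraries compared in the fit, both genes passed (adjusted p = 0.014 and 0.0349).

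The 4 Tu-Gr1+–primed libraries had a wider spread than those of either other group for each of the 8 genes. Replicate 1 was the highest and replicate 4 the lowest for the 7 genes that rose, and for *Mavs* replicate 4 was the highest. The highest library exceeded the lowest by 1.28-fold for *Mavs* to 8.08-fold for *Zbp1* in this group, by 1.09-fold to 1.76-fold in the Spl-Gr1+–primed group and by 1.08-fold to 2.01-fold in the parental group. Relative to the parental mean, *Zbp1* stood at 5.76 in replicate 1 and at 2.78 in replicate 4 on the log2 scale, and *Ddx58* at 2.19 and 0.86. Replicate 4 also had the lowest summed level of granulocyte and myeloid markers in its group, 22.4 CPM against 26.9 to 27.3 CPM, but the highest count of the 18 that were too low to be tested, 17 counts against 9 to 15. The part of this in its lower sensor levels was not tested. Without replicate 4 the log2 fold change against Spl-Gr1+–primed cells was 4.64 for *Zbp1*, 3.35 for *Dhx58* and 0.85 for *Tlr3*. Without replicate 1 it was 3.90, 2.70 and 0.58 for the same genes.

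**Figure D3:**
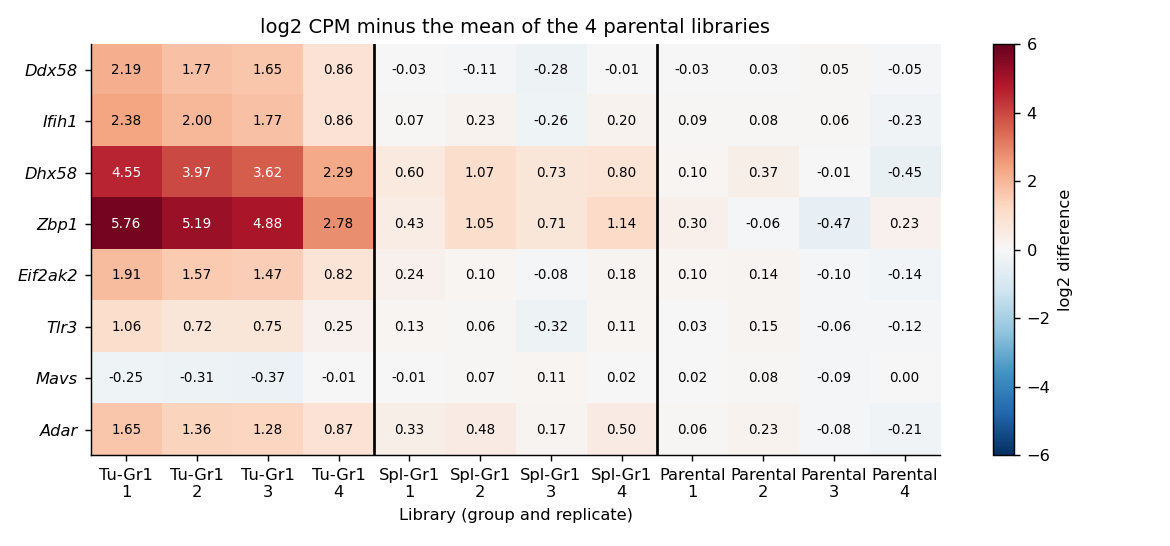
Log2 CPM of each gene in each library minus the mean of the 4 parental libraries, printed in the cells and colored from blue (lower) to red (higher). Within the Tu-Gr1+–primed block the values of replicate 4 are the smallest for the 7 genes that rose, down to 0.25 for *Tlr3*, and *Zbp1* reaches 5.76 in replicate 1.

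The 7 genes that rose moved together across the 12 libraries. Pearson's r of log2 CPM over their 21 pairs ranged from 0.919 to 0.992 with a median of 0.971, and r of *Mavs* with each of the 7 ranged from −0.896 to −0.768. These coefficients describe 12 libraries in 3 groups and carry the group differences. By the same measure, the genes outside the 8 whose pattern was most like *Ddx58* included *Lgals9* and *Gbp3* (r = 0.996 each). For *Ifih1* they included *Samd9l* and *Gm4070* (0.995 and 0.990), and for *Dhx58* they were *Mndal*, *Stat2* and *Sp100* (0.996, 0.995 and 0.993). *Zbp1* was closest to *Parp9*, *Ifi204* and *Ifi202b* (0.993, 0.993 and 0.990), and *Eif2ak2* to *Gbp7*, *Samd9l* and *Parp14* (0.998, 0.993 and 0.992). *Tlr3* was closest to *Znfx1*, *Gm4070* and *Trim25* (0.980, 0.978 and 0.972), *Adar* to *Ly6c1*, *Helz2* and *Mndal* (0.992, 0.991 and 0.988) and *Mavs* to *Slc19a1*, *Osgin1* and *Nelfa* (0.963, 0.958 and 0.954). *Ly6c1* and the *Ifi200* family genes have close copies in the genome, between which the authors' read assignment could divide reads.

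Per transcript length, the order of the genes changed between the groups. In Tu-Gr1+–primed cells *Eif2ak2* (68.4 ± 20.01 TPM, SD, n = 4), *Adar* (56.6 ± 13.0 TPM) and *Ddx58* (51.2 ± 16.7 TPM) were the most abundant, and each overlapped the next in its range over libraries. They were clear of *Mavs* (17.2 ± 1.87 TPM), *Tlr3* (14.4 ± 4.25 TPM), *Zbp1* (14.3 ± 8.94 TPM), *Ifih1* (13.4 ± 5.15 TPM) and *Dhx58* (10.8 ± 5.22 TPM), of which each overlapped the next. In Spl-Gr1+–primed cells *Adar* (24.8 ± 4.39 TPM), *Eif2ak2* (24.5 ± 3.04 TPM) and *Mavs* (20.3 ± 1.30 TPM) overlapped in that order. *Ddx58* (12.5 ± 1.99 TPM) and *Tlr3* (9.61 ± 2.63 TPM) followed and overlapped each other, and *Ifih1* (3.78 ± 0.783 TPM), *Dhx58* (1.74 ± 0.540 TPM) and *Zbp1* (0.726 ± 0.201 TPM) each lay clear of the one before. In parental cells *Eif2ak2* (16.6 ± 3.31 TPM), *Mavs* (14.6 ± 2.30 TPM), *Adar* (13.9 ± 3.44 TPM), *Ddx58* (10.1 ± 1.26 TPM) and *Tlr3* (6.98 ± 1.597 TPM) formed a chain of overlapping ranges. *Ifih1* (2.90 ± 0.740 TPM) stood below them, and *Dhx58* (0.535 ± 0.123 TPM) and *Zbp1* (0.359 ± 0.185 TPM) were lowest and overlapped. Thus *Mavs*, the shared adaptor, was above both of its receptors in parental cells and below *Ddx58* in Tu-Gr1+–primed cells, where every library had more *Ddx58* than *Mavs*. With protein-coding transcripts alone, Tu-Gr1+–primed replicate 4 was an exception, at 18.2 TPM for *Ddx58* and 19.3 TPM for *Mavs*.

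*Adar* has a pair of first exons in the annotation, and background knowledge ascribes the downstream one to an interferon-inducible promoter whose transcripts carry the start codon of the long, partly cytoplasmic protein, whereas the upstream one gives the shorter nuclear protein. In the annotation used here, the upstream transcript *Adar-202* begins at chr3:89715022 and has its start codon at 89735558. The downstream first exon begins at chr3:89730748, and *Adar-201* and *Adar-203*, which begin there, have their start codon at 89730811. The gamma-activated site printed above begins 8 bases before this downstream start. Transcripts with the long-form start codon took 74.9%, 79.7%, 85.4% and 64.3% of the estimated protein-coding *Adar* counts in Tu-Gr1+–primed replicates 1 to 4. They took 54.3%, 57.2%, 56.1% and 61.1% in the Spl-Gr1+–primed replicates and 35.8%, 31.0%, 61.1% and 34.3% in the parental ones. The Tu-Gr1+–primed libraries were above all others, and parental replicate 3 alone reached the level of the Spl-Gr1+–primed group.

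The long-form share was 76.1 ± 8.93% in Tu-Gr1+–primed, 57.2 ± 2.87% in Spl-Gr1+–primed and 40.5 ± 13.8% in parental cells (SD, n = 4). By a two-sided exact permutation test the first group differed from each of the others with p = 0.0286, the smallest that 4 against 4 libraries allow (adjusted p = 0.0429 over 3 comparisons), and the test between the latter groups gave p = 0.143. When transcripts were instead grouped by first exon, which moves 1 Tu-Gr1+–primed and 1 Spl-Gr1+–primed library, the exact permutation p was 0.0571 between the primed groups and 0.0286 against parental cells, and neither passed after adjustment (adjusted p = 0.0857 for both). In TPM, transcripts of the downstream first exon were at 37.5 ± 10.1 in Tu-Gr1+–primed and 14.1 ± 1.86 in Spl-Gr1+–primed cells (2.49-fold on the log2(TPM + 1) scale, exact permutation p = 0.0286). The upstream transcript was at 8.55 ± 3.00 and 7.74 ± 1.57 TPM (1.06-fold, exact permutation p = 0.771). In parental cells the downstream transcripts were at 6.56 ± 1.44 TPM and the upstream one at 6.84 ± 2.64 TPM. The shares are Salmon's estimates from reads that the forms mostly share, so their error within a library is not known here.

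**Figure D4:**
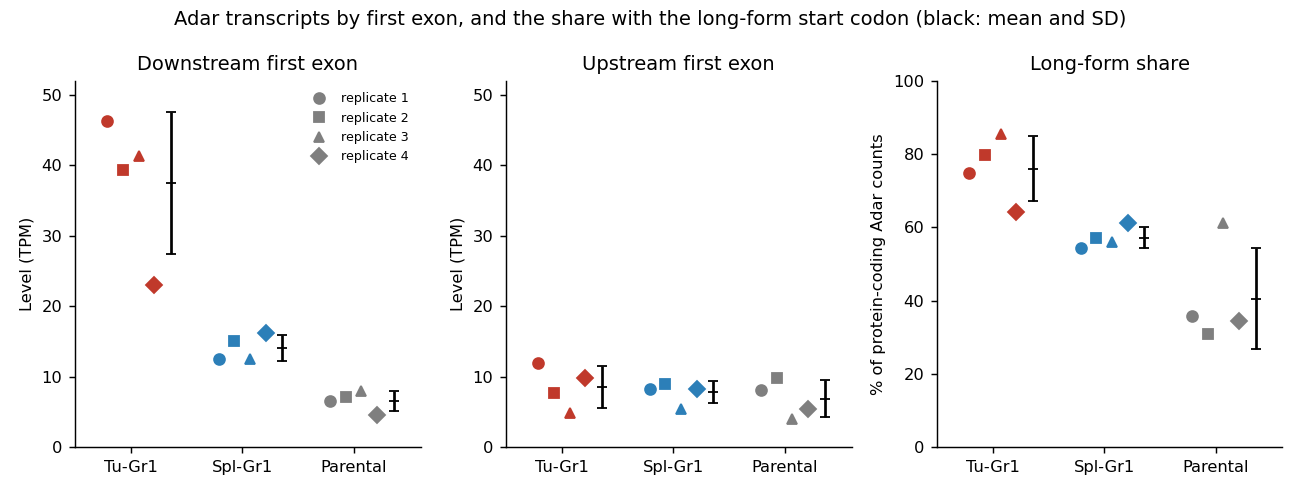
Level of *Adar* transcripts that begin at the downstream and at the upstream first exon, in TPM, and the share of protein-coding *Adar* counts on transcripts with the long-form start codon, in percent, for each library with the group mean and SD in black. The downstream transcripts reach 46.4 TPM in Tu-Gr1+–primed replicate 1 while the upstream one stays at 11.9 TPM or less in all 12 libraries.

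The isoforms of the other genes were described by their shares, and only the non-coding share was tested. *Ddx58* was mostly counted on its protein-coding transcript *Ddx58-201*, with 66.8 ± 3.53% in Tu-Gr1+–primed, 73.3 ± 3.12% in Spl-Gr1+–primed and 81.4 ± 6.37% in parental cells. A further 20.8 ± 0.991%, 23.0 ± 4.995% and 13.2 ± 0.743% were counted on *Ddx58-205*, which is annotated as a transcript without a coding sequence. All non-coding isoforms of *Ddx58* together took 24.5 ± 1.503%, 25.03 ± 4.17% and 14.7 ± 1.88% of its counts. Each primed group differed from parental cells with an exact permutation p of 0.0286, but among 21 such tests over 7 genes this gave an adjusted p of 0.1, and none of the 21 passed. *Zbp1* did not enter these tests because some libraries held fewer than 10 counts. *Eif2ak2* was almost wholly counted on *Eif2ak2-201*, with 98.9 ± 0.124% in Tu-Gr1+–primed cells. *Mavs* counts were divided between *Mavs-201* (58.3 ± 6.90%, 53.0 ± 6.30% and 41.5 ± 19.2% in the 3 groups) and *Mavs-202* (38.4 ± 7.63%, 42.2 ± 6.96% and 54.9 ± 17.5%). *Ifih1* was divided between 2 protein-coding transcripts in near-equal parts in every group, with 46.8 ± 5.66% on *Ifih1-201* and 48.8 ± 3.49% on *Ifih1-202* in Tu-Gr1+–primed cells. *Tlr3-205* took 58.0 ± 10.2%, 61.7 ± 12.8% and 58.3 ± 18.4% of *Tlr3* counts in the 3 groups, and *Tlr3-202* 32.5 ± 9.40%, 28.8 ± 11.4% and 32.2 ± 23.7%. *Dhx58-201* took 90.9 ± 2.37%, 87.4 ± 4.12% and 84.5 ± 27.8% of *Dhx58* counts. In parental replicate 4, with 15 *Dhx58* counts, non-coding transcripts took 57.0%. The non-coding *Dhx58-202* took 3.47 ± 1.11%, 0% and 14.3 ± 28.5%.

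Most genes of the surrounding pathways were not called between the primed groups. Over all genes tested, 4.66% were called higher and 2.97% lower in this comparison, and the counts of each list stand against these shares. Of 26 regulators and signal relay genes of the RIG-I-like receptors, 4 were higher in Tu-Gr1+–primed than in Spl-Gr1+–primed cells and none was lower, and their median log2 fold change was 0.03 against −0.01 over all genes tested. *Irf7*, the interferon regulatory factor that amplifies interferon production, rose from 1.99 ± 0.375 to 40.2 ± 22.2 CPM (4.33, SE 0.40, adjusted p = 2.42e-05). *Irf7* and the helicase gene *Ddx60*, given below, are also on the study's signature list drawn from these libraries, so their direction is not independent evidence either. *Riok3*, a kinase that acts on MDA5, rose by 0.51 (SE 0.05, adjusted p = 4.57e-05). The others called were *Trim25*, the ubiquitin ligase of RIG-I (1.00), and *Zc3hav1*, the gene of an antiviral RNA-binding protein (0.31). Against parental cells 11 of the 26 were higher and 3 lower in Tu-Gr1+–primed cells, and 8 were higher and 4 lower in Spl-Gr1+–primed cells. Over all genes, 31.2% were called higher and 28% lower in the first of these comparisons, and 25.7% and 22.5% in the second. *Tbk1*, the kinase downstream of MAVS, was at 69.4 ± 4.29 CPM in Tu-Gr1+–primed, 63.1 ± 1.92 CPM in Spl-Gr1+–primed and 33.9 ± 4.11 CPM in parental cells, which gave log2 fold changes of 1.03 and 0.90 against parental cells. Its relative *Ikbke* showed 0.78 and 0.77, and neither kinase passed between the primed groups (adjusted p = 0.3 and 0.972). These kinases, and the genes below that follow "the others" or were not called, were named after their values were seen.

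Of 16 other RNA helicases and double-stranded RNA-binding genes, 1 was called between the primed groups. *Ddx60*, a helicase of the RIG-I-like receptor pathway, was at 14.8 ± 6.73 CPM in Tu-Gr1+–primed and 1.67 ± 0.525 CPM in Spl-Gr1+–primed cells (3.13, SE 0.35, adjusted p = 7.89e-05), and the median of the list was −0.03. Against parental cells 4 of the 16 were higher and 6 lower in Tu-Gr1+–primed cells, and 2 were higher and 4 lower in Spl-Gr1+–primed cells. The shares over all genes were 31.2% and 28% in the first of these comparisons and 25.7% and 22.5% in the second. Of 7 tested genes among 10 endosomal Toll-like receptors and adaptors, *Wdfy1*, an adaptor of TLR3 signaling, was higher in Tu-Gr1+–primed than in Spl-Gr1+–primed cells (0.23, SE 0.05, adjusted p = 0.0161), with a list median of −0.07. Against parental cells 3 were higher and 1 lower in Tu-Gr1+–primed cells, and 1 was lower in Spl-Gr1+–primed cells.

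Among 10 genes of PKR signaling and the integrated stress response, *Ppp1r15a*, which directs dephosphorylation of the PKR substrate, was the only one called between the primed groups (0.41, SE 0.07, adjusted p = 0.00201), and the list median was −0.01. Against parental cells 6 were higher and 2 lower in Tu-Gr1+–primed cells, and 4 were higher and 2 lower in Spl-Gr1+–primed cells. For these and the next lists, the shares over all genes were 31.2% and 28% in the first comparison and 25.7% and 22.5% in the second. Among 6 tested partners of ZBP1 in cell death, *Mlkl*, the executioner of necroptosis, was higher by 0.20 in Tu-Gr1+–primed than in Spl-Gr1+–primed cells (SE 0.05, adjusted p = 0.03), with a list median of 0.09. The kinase gene *Ripk3*, which links ZBP1 to MLKL, was not expressed highly enough to be tested, with at most 1 count in any Tu-Gr1+–primed library and 0 in every Spl-Gr1+–primed one. Against parental cells 2 were higher and 2 lower in Tu-Gr1+–primed cells, and 2 were higher and 3 lower in Spl-Gr1+–primed cells. None of 5 tested RNA editing relatives of *Adar* was called between the primed groups by edgeR at a list median of −0.13, and the smallest p among them was that of *Adat1* (−0.20, SE 0.09, adjusted p = 0.204). Against parental cells 1 was higher and 1 lower in each primed group.

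Among the pathway lists, that of cytosolic DNA sensing, which holds nucleases as well as sensors, had the most calls between the primed groups. Of its 14 genes 6 were higher and none lower, against 4.66% and 2.97% of all genes, with a median log2 fold change of 0.17. *Mndal* (1.04, SE 0.12, adjusted p = 0.000114) and *Ifi203* (0.89, SE 0.11, adjusted p = 0.000154), members of the interferon-inducible PYHIN family, had the smallest p of the list. The others were *Aim2* (0.76), *Ifi204* (0.86), *Ifi205* (1.498) and the DNA exonuclease gene *Trex1* (0.47). Of these, *Ifi205* rested on few counts, 12 to 23 in Tu-Gr1+–primed and 3 to 10 in Spl-Gr1+–primed libraries (SE 0.40, adjusted p = 0.0344). *Aim2* was also low, at 41 to 51 and 26 to 34 counts (SE 0.21, adjusted p = 0.0426). The DNA sensor *Cgas*, at 20.6 ± 1.82 and 19.6 ± 1.32 CPM, was not called (0.07, SE 0.12, adjusted p = 0.77). Against parental cells 8 of the 14 were higher and 4 lower in Tu-Gr1+–primed cells, and 4 were higher and 5 lower in Spl-Gr1+–primed cells. The shares over all genes were 31.2% and 28%, and 25.7% and 22.5%, in the same order.

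**Figure D5:**
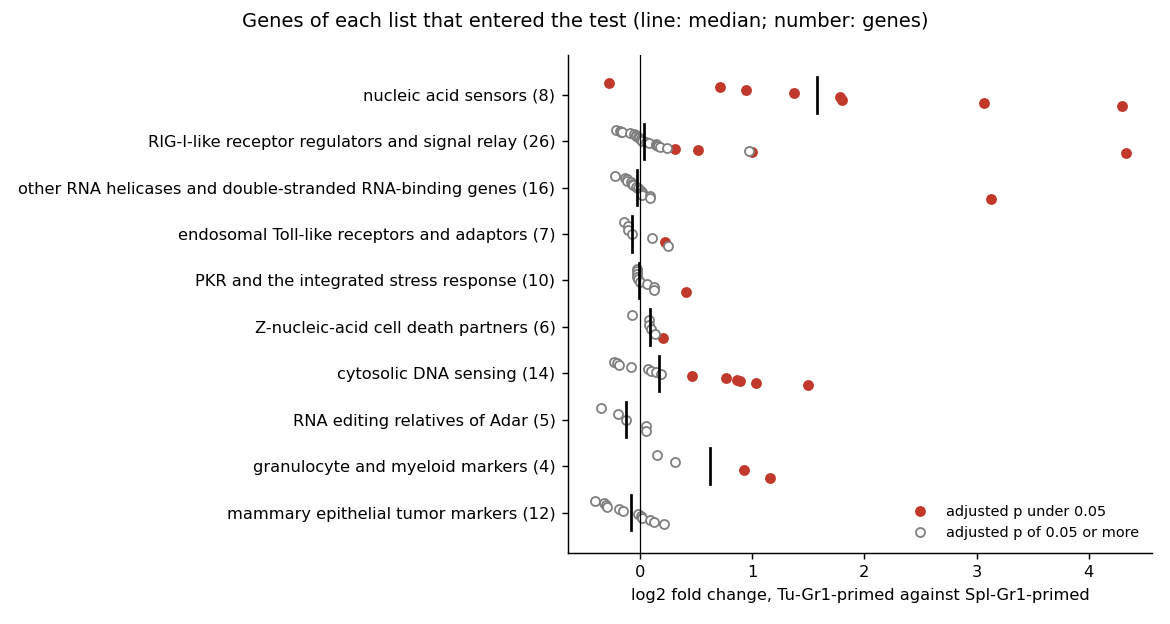
Log2 fold change of every tested gene of each list between Tu-Gr1+–primed and Spl-Gr1+–primed cells, with filled symbols for an adjusted p below 0.05 and a black line at the list's median. The 8 sensor genes have a median of 1.58, and the medians of the 7 pathway lists lie between −0.13 and 0.17, while that of the 4 tested granulocyte markers is 0.62.

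The interferon genes themselves, among them the type I genes toward which RIG-I and MDA5 signal, were almost without reads. Of 21 type I, II and III interferon genes none was expressed highly enough to be tested. Their summed count was 0 to 2 in each Tu-Gr1+–primed and each Spl-Gr1+–primed library and 0 in each parental library. *Ifnb1* was counted once, in Tu-Gr1+–primed replicate 2. A count of 0 allows up to 3 counts, or at most 0.123 CPM in the shallowest library, and covers counting error only.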

How the data were processed

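RNA-Seq of 12 libraries was analyzed, 4 per group as given by the labels. Per the submitters' processing notes, reads were checked with FastQC, trimmed with Trimmomatic 0.39 and quantified with Salmon 1.4.0 on GRCm38 (mm10), from TruSeq stranded libraries; the annotation release and Salmon's options are not given in the sources used here. The deposited estimated counts are Salmon's read numbers per Ensembl transcript, without normalization, and the deposited TPM values (transcripts per 1000000) are those that the authors obtained by dividing these numbers by the effective length and scaling each library to a constant sum. A deposited table of normalized counts was not used.

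Estimated counts were summed per gene with GENCODE M21, which held 116021 of the 117081 transcripts (0.326% to 0.419% of reads fell outside it), and rounded. R 4.3.3 with edgeR 4.0.16 was used for filtering by expression, TMM normalization and 1 quasi-likelihood fit over all 12 libraries. The Benjamini-Hochberg adjustment covered 12555 genes, with a threshold of 0.05. The standard error is the log2 fold change divided by the square root of F. The fit was tested on simulated data. Transcript shares were compared by two-sided exact permutation tests (scipy 1.17.1). DESeq2 1.42.0, limma 3.58.1, other filters, normalizations and sample sets were tried as alternatives. No pair of replicates agreed within counting noise (the chi-square over its degrees of freedom was at least 3.43).

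The 8 genes and all gene lists were chosen with earlier results of these data known. Named genes are the 8 members, from each list the 2 genes called with the lowest p, per direction, between the primed groups (or the 1 with the smallest p where none was called), the 3 genes with the highest Pearson correlation to each member (1 such gene is not reported here), and transcripts with at least 10% of a gene's counts in some group.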

Additional observations from a re-analysis of the deposited data

Results flagged for a closer look

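In all, 3 values stood apart from the other 3 libraries of their group, measured as the gap to the nearest library over the group's range and set against Dixon's critical value for 4 libraries. Among 27 groups of values examined, chance marks about 5%. *Ifih1* in parental replicate 4 was at 8.75 CPM (219 counts) against 10.7 to 10.9 CPM in the other parental libraries (ratio 0.917). *Tlr3* in Spl-Gr1+–primed replicate 3 was at 14.1 CPM (387 counts) against 18.3 to 19.3 CPM (ratio 0.831). The long-form share of *Adar* in parental replicate 3 was 61.1% against 31.0% to 35.8% (ratio 0.840), and it is this library that brings the parental group into the range of the Spl-Gr1+–primed group.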

How the results depend on the processing

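All 7 genes higher in Tu-Gr1+–primed cells stayed called under every alternative in which they were tested, except *Tlr3* against Spl-Gr1+–primed cells with DESeq2 and length offsets (6 of 7 called). Of 573 alternative fold changes of single genes, 535 kept their direction and side of the threshold, 22 lost the call, 4 gained it and 12 changed sign. *Zbp1* was not in the test where at least 10 counts were required in every library. The count of genes lower in Tu-Gr1+–primed than in Spl-Gr1+–primed cells (1, *Mavs*) was 0 with protein-coding transcripts only, with only the 8 libraries, with the replicate block (−0.28, adjusted p = 0.0516) and at an adjusted p below 0.01, and 0 to 1 when single libraries were left out; against parental cells it was 0 with protein-coding transcripts only and at 0.01. The count higher in Spl-Gr1+–primed than in parental cells (1, *Adar*) was 0 with RLE normalization and at 0.01, 2 with DESeq2 and length offsets, 3 with only the 8 libraries, and 0 to 2 without single libraries. The cause of these changes was not tested. Changes of sign touched only values near 0: between Spl-Gr1+–primed and parental cells, *Ifih1* was −0.047 with DESeq2 and length offsets and −0.0027 to 0.14 without single libraries, and *Tlr3* was −0.021 with RLE, −0.025 with DESeq2, −0.0029 with limma-voom, −0.019 without a filter, −0.0034 with 8 libraries and −0.044 to 0.0799 without single libraries. Taken from TPM, non-coding shares differed by 2.87 percentage points for *Ddx58* between the primed groups, and for *Dhx58* by 6.28 (Tu-Gr1+–primed minus parental) and 23.9 (Spl-Gr1+–primed minus parental), with signs opposite to those from counts. The *Adar* long-form share differed between the primed groups by 18.9 points, by 17.1 points (exact permutation p = 0.0571, adjusted p = 0.0857) with transcripts grouped by first exon, an alternative chosen after seeing the data, and by 15.8 to 22.8 points without single libraries, where 3 against 4 allow no exact p below 0.0571. Correlations of same-numbered deviations were weak, from −0.164 to 0.148 over the 3 comparisons and from 0.0839 to 0.148 between Tu-Gr1+–primed and parental cells. Differently numbered libraries were not compared, so these values do not settle whether replicate numbers mark pairs. The replicate block changed no other call. Low counts limit *Zbp1* and *Dhx58* outside the Tu-Gr1+–primed group.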
